A study of Mus musculus with 8 samples.

Results

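The enzymes that build cholesterol, the SREBP2 machinery that controls them and 5 genes that move or store sterols were followed in livers with a hepatocyte deletion of Usp39, which encodes a protein of the spliceosome. The 28 genes were taken by symbol from the 55385 gene identifiers of the count table, and all 28 were found. They comprise 19 synthesis enzymes, 4 control genes and 5 transport and storage genes, and other known genes of the pathway are not among them. RNA came from whole livers of 5-week-old male mice on a C57BL/6J background, all fasted for 16 h before collection. In the 4 Usp39-HKO mice, Usp39 fl/fl alleles carry loxP sites around exon 2 and Cre is driven by the Albumin promoter, which is active in hepatocytes, so that the other cells of the liver keep the gene. The 4 control mice were littermates, which the sample labels call WT. Each mouse gave 1 library, and all mice were fasted, so the fed state was not measured.

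Cholesterol is made from acetyl-CoA in a long chain of reactions: acetyl-CoA is condensed to mevalonate, mevalonate is turned into isoprenoid units, these are joined to squalene, and squalene is closed to lanosterol and trimmed to cholesterol. The transcription factor SREBP2, encoded by Srebf2, is made as a membrane protein of the endoplasmic reticulum. When sterols there are scarce, the escort protein Scap carries it to the Golgi, where proteases release the part that enters the nucleus and activates the genes of the chain. When sterols are plentiful, Insig proteins hold Scap and SREBP2 back. Liver is a major site of this synthesis, and in rodents its enzyme transcripts are known to fall during fasting.

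SREBP2 is known to bind sterol regulatory elements, often beside CCAAT boxes bound by NF-Y. The 250 bases before the transcript start were therefore read from RefSeq promoters on GRCm38.p6, which held 22 of the 28 genes. Acetyl-CoA-derived HMG-CoA is made by Hmgcs1, a textbook SREBP2 target. Its upstream sequence at chr13:119690101-119690350, plus strand, is shown because it was the only one of the 22 that held the element TCACNCCAC on either strand. The search allowed any base at N and no mismatch elsewhere, so variants of the element were not counted. The upstream sequences of Mvd at chr8:122443423-122443672, minus strand, and of Nsdhl at chrX:72918271-72918520, plus strand, are shown as those of enzymes whose transcripts were higher in Usp39-HKO livers. Each is written 5′ to 3′ along the gene, and capitals mark the sterol regulatory element (TCACCCCAC) and CCAAT boxes on either strand (CCAAT or ATTGG).
Hmgcs1: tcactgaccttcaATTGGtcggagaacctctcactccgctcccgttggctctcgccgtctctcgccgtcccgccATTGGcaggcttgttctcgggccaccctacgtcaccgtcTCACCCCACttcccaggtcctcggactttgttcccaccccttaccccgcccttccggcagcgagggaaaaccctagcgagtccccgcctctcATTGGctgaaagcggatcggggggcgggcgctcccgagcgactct
Mvd: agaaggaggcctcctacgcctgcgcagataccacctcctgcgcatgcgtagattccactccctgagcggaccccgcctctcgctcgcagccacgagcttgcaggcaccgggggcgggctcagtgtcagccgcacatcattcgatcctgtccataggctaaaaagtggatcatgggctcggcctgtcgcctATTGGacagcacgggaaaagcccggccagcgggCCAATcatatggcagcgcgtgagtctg
Nsdhl: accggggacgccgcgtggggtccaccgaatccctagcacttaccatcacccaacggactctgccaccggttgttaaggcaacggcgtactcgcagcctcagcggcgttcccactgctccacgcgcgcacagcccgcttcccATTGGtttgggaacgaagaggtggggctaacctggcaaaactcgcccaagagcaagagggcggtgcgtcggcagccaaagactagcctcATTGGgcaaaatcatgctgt

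In Hmgcs1 the element lay from -137 to -129 relative to the start, with 2 CCAAT boxes before it and 1 after it. The element was found in 1.05% of 32851 promoter windows of this length, which come from 27025 genes, and in 1.23% of those genes. CCAAT boxes were present in 20 of the 22 genes, against 37.5% of all genes, and the exceptions were Acat2 and Scap. The GC box GGGCGG was present in 19 of the 22 genes, against 35.4% of all genes. The 27025 genes were not limited to those expressed in liver, so these shares are not a matched background, and the differences were not tested. These are matches of letters in a window and were not tested as binding sites. No promoter was matched for Fdps, Fdft1, Sqle, Stard4, Soat2 and Npc1.

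Total counts were between 8589636 and 10418450 per mouse. Values per mouse are given as FPKM divided by the TMM factor of the library (scaled FPKM), in the order A468, A472, A473 and A475 for control mice and A469, A470, A471 and A474 for Usp39-HKO mice, whose numbers do not pair. The TMM factors were 0.912 to 0.94 for control libraries and 1.01 to 1.19 for Usp39-HKO libraries. Left unscaled, the median of all genes tested lay 0.23 above control on the log2 scale in Usp39-HKO livers. Usp39 itself, counted over all exons, was 10.3, 11.3, 9.6 and 10.4 scaled FPKM in controls and 8.28, 7.95, 8.18 and 6.80 in Usp39-HKO mice, without overlap. For Usp39 the log2 fold change was -0.41 ± 0.11 (SE, edgeR adjusted p = 0.0212), and the adjusted p was 0.0547 without control mouse A475 and 0.0615 without Usp39-HKO mouse A474. Of marker lists, 5 of 10 hepatocyte genes were lower, while 5 of 6 tested biliary, 8 of 10 stellate and fibroblast, 9 of 10 macrophage and 7 of 7 tested dividing-cell genes were higher in Usp39-HKO livers. Of 8 endothelial genes 1 was lower, and 1 of 6 tested lymphocyte genes was higher. Over all genes tested, 10.9% were higher and 11.6% lower. The summed scaled FPKM of the 10 hepatocyte markers, among them Alb and Apoa1, spanned 21020 to 23290 over the controls and 13800 to 22480 over the Usp39-HKO livers. Alb and Apoa1 were not called, at log2 fold changes of -0.14 and -0.34 (edgeR adjusted p = 0.626 and 0.281). In whole liver, fewer cells of a type and less RNA per cell cannot be told apart.

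Among the Usp39-HKO mice, mouse A469 stood apart. The median hepatocyte marker was at 0.936 of the control mean in this liver and at 0.556 to 0.686 in the other 3 Usp39-HKO livers. The median biliary marker was at 1.22 times the control mean in mouse A469, against 3.32 to 6.44 times in the others, and the median stellate and fibroblast marker at 1.29 times, against 2.03 to 2.20 times. Dividing-cell markers were not lower in this liver, with a median of 5.79 times against 2.57 to 4.64 times. Values without mouse A469 are given beside the results that it moved.

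Of the 28 genes, 27 passed the filter on low values (FPKM no lower than 0.5 in 4 livers or more), and 7 of them changed at an adjusted p under 0.05 over all 14340 genes tested (edgeR quasi-likelihood test, 4 mice per group). Mvd, Idi1, Sqle and Nsdhl were higher in Usp39-HKO livers, and Tm7sf2, Scap and Npc1 were lower. The share of 7 in 27, or 25.9%, compares with 22.5% of all genes tested in this contrast. Higher genes made up 14.8% of the set and 10.9% of all genes, and lower genes 11.1% of the set and 11.6% of all genes, so the counts alone do not set the pathway apart. The median log2 fold change of the 27 genes was 0.19, against -0.0015 over all genes tested, and 17 of the 27 had a positive sign. Scaling by library totals alone gave 11 higher and 2 lower genes, with a median of 0.44 in the set and 0.23 over all genes. With this scaling 4211 of all 14340 genes tested were called, and 3509 of these were higher, so higher calls rose over all genes too. Without mouse A469, Hmgcs1, Idi1, Nsdhl, Soat1 and Sqle were higher and Ebp, Npc1, Scap and Tm7sf2 lower, against 12.9% of all genes higher and 11.6% lower. In that fit Mvk, Pmvk, Ggps1, Fdft1, Insig1 and Insig2 were at log2 fold changes of -0.11, -0.33, 0.19, 0.08, 0.31 and -0.18 and did not pass the test.

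**Figure D1:**
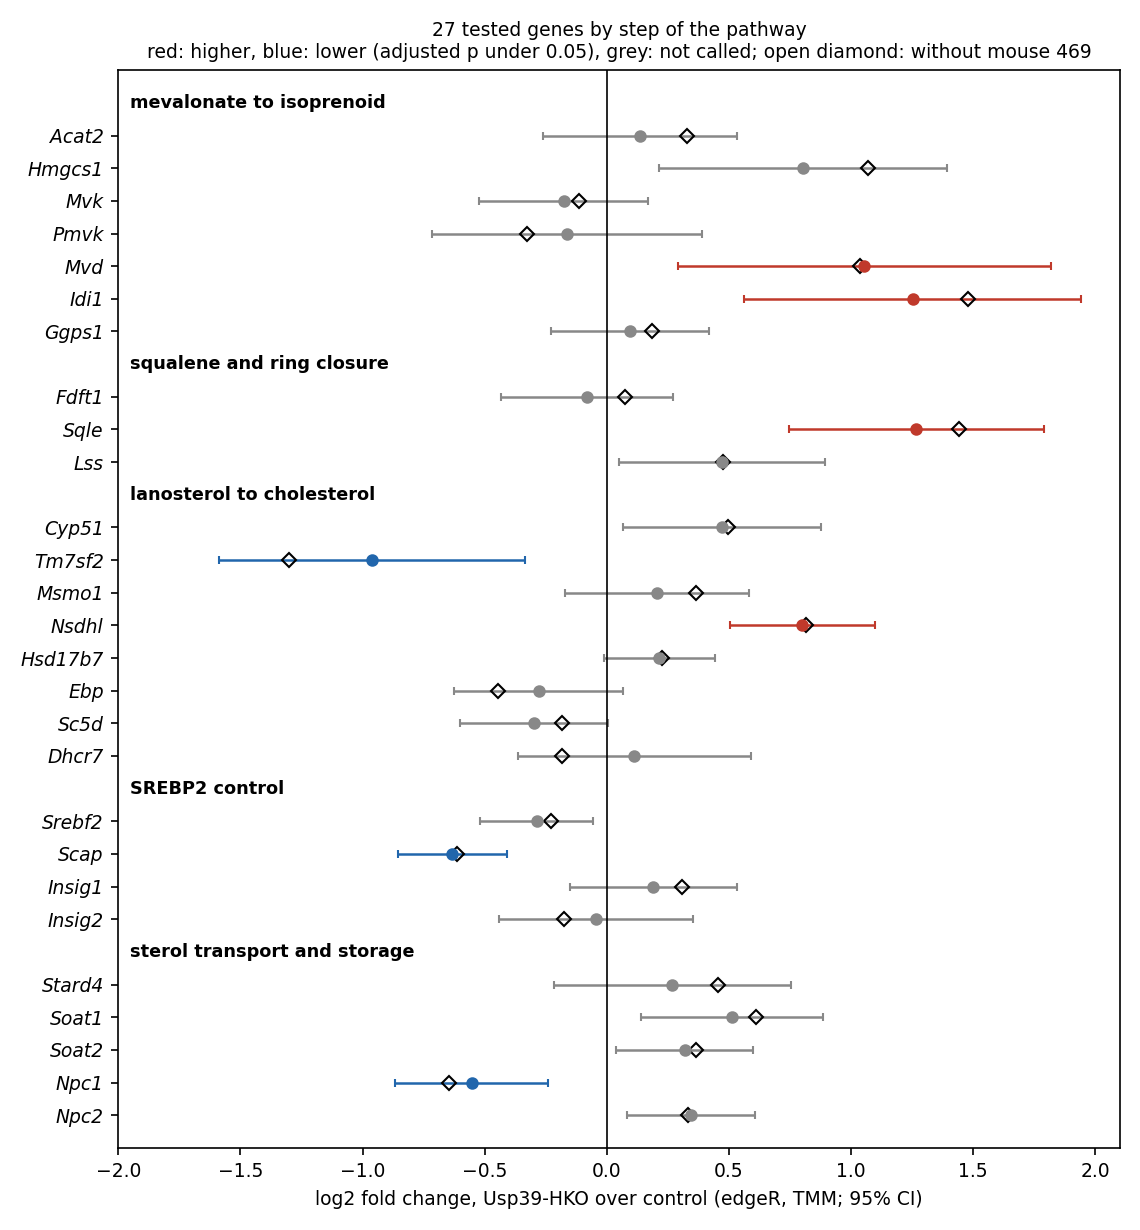
Log2 fold change between Usp39-HKO and control livers, positive where higher in Usp39-HKO (x axis), for the 27 genes tested, grouped by role, with filled points for the estimate and bars for its 95% confidence interval. Red genes were higher and blue genes lower at an adjusted p under 0.05, grey genes passed in neither direction, and open diamonds give the estimate without mouse A469; the higher genes Mvd, Idi1, Sqle and Nsdhl lie between 0.80 and 1.27.

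On the scaled FPKM, all 4 Usp39-HKO livers were above all 4 controls for Sqle, Nsdhl, Soat1 and Soat2, 4 of 27 genes against 11.9% of all genes tested. All 4 were below all 4 controls for Scap, 1 of 27 genes against 12.9% of all genes. Sqle, Nsdhl and Scap were also called in each fit that left out 1 liver. The summed scaled FPKM of the 19 synthesis enzymes, a level per length, spanned 243 to 257 over the controls and 246 to 256 over the Usp39-HKO livers. This overlap depends on the scaling: in FPKM as deposited the same sum spanned 222 to 237 over the controls and 248 to 303 over the Usp39-HKO livers, without overlap. The sum is carried by abundant genes and shows little of the others. Mean scaled FPKM in controls was 60.7 for Ebp and 45.8 for Sc5d. It was 1.09 for Mvd, 2.13 for Idi1, 1.65 for Sqle and 4.0 for Nsdhl, the enzymes called higher.

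The steps from acetyl-CoA to isoprenoids held 8 genes, of which 2 of 7 tested were higher and 5 did not pass the test. Hmgcs1, which condenses acetoacetyl-CoA and acetyl-CoA to HMG-CoA, was at 28.5, 22.1, 20.2 and 18.4 scaled FPKM in controls and at 17.4, 46.1, 44.5 and 47.7 in Usp39-HKO livers. In Usp39-HKO mice A470, A471 and A474 the level was above each control, and in mouse A469 it was below each control. Over all 8 mice the log2 fold change of Hmgcs1 was 0.80 ± 0.27 (SE) with an edgeR adjusted p of 0.0514, which missed the threshold. Without mouse A469 it was 1.07 with an adjusted p of 0.000559, and without any other single liver the adjusted p was 0.053 to 0.137. For Hmgcs1, 12.1% of the exon bases overlap Gm48342 on the opposite strand, and the strand setting of the counting was not given in the sources used here.

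Idi1 is the isomerase that interconverts the isoprenoid units. Its scaled FPKM was 3.10, 2.43, 1.93 and 1.08 in controls and 2.70, 5.47, 5.51 and 6.55 in Usp39-HKO livers, so that only mouse A469 fell inside the control range. Idi1 had a log2 fold change of 1.25 ± 0.32 (SE, edgeR adjusted p = 0.0163). It was 1.48 without mouse A469 (adjusted p = 0.00228), and the adjusted p was 0.051 without control mouse A473. Of the Idi1 transcript, 33.3% is nearly identical to other annotated genes (at least 97% identity over at least 150 bases), and how reads from shared sequence were counted was not given in the sources used here. One of these genes, Gm48574, overlaps 9.22% of the Idi1 exon bases on the opposite strand.

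Mvd, the decarboxylase that forms the isoprenoid unit, was expressed at a low level per length. Its scaled FPKM was 0.578, 1.88, 1.03 and 0.879 in controls and 2.46, 1.36, 2.70 and 2.63 in Usp39-HKO livers, and here mouse A469 was high and mouse A470 inside the control range. Mvd had a log2 fold change of 1.05 ± 0.35 (SE, edgeR adjusted p = 0.049), close to the threshold, with as few as 9 counts in a library. The call was kept without control mouse A472 (adjusted p = 0.0117) and without Usp39-HKO mouse A470 (0.0254). It was lost on leaving out control mouse A468 (0.121), A473 (0.113) or A475 (0.131), or Usp39-HKO mouse A469 (0.0673), A471 (0.109) or A474 (0.114).

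The enzymes around these steps did not pass the test. Acat2, the thiolase that makes acetoacetyl-CoA, had a log2 fold change of 0.13 ± 0.18 (SE, edgeR adjusted p = 0.641), and its lowest scaled FPKM of all mice, 6.39, was in mouse A469 against 8.79 to 12.3 in the other 7 livers. Without mouse A469 the log2 fold change of Acat2 was 0.33 (adjusted p = 0.0535). Its transcript shares 65.6% of its bases with other genes, among them its paralog Acat3, which held 3630 counts in controls and 3086 in Usp39-HKO livers against 848 and 1129 for Acat2. The mevalonate kinases Mvk and Pmvk were at log2 fold changes of -0.18 ± 0.16 and -0.16 ± 0.25 (SE, edgeR adjusted p = 0.464 and 0.691). Ggps1, which makes geranylgeranyl diphosphate for protein prenylation, was at 0.10 ± 0.15 (SE, edgeR adjusted p = 0.692). Of the Ggps1 transcript, 27.3% matches Arid4b or Gm5630 on either strand, and Arid4b overlaps 5.44% of the Ggps1 exon bases on the opposite strand. The intervals of these 4 genes, -0.26 to 0.53, -0.52 to 0.17, -0.72 to 0.39 and -0.23 to 0.42 in the order given, leave out a change of 2 times in either direction.

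Fdps, the farnesyl diphosphate synthase, was the only gene of the 28 that failed the filter. It had 4, 8, 4 and 1 counts in controls and 5, 10, 8 and 17 in Usp39-HKO livers. Of its transcript, 91.4% is nearly identical to Gm3571 or Gm43738, so its level is uncertain. Gm43738 overlaps 26.7% of the Fdps exon bases on the same strand.

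**Figure D2:**
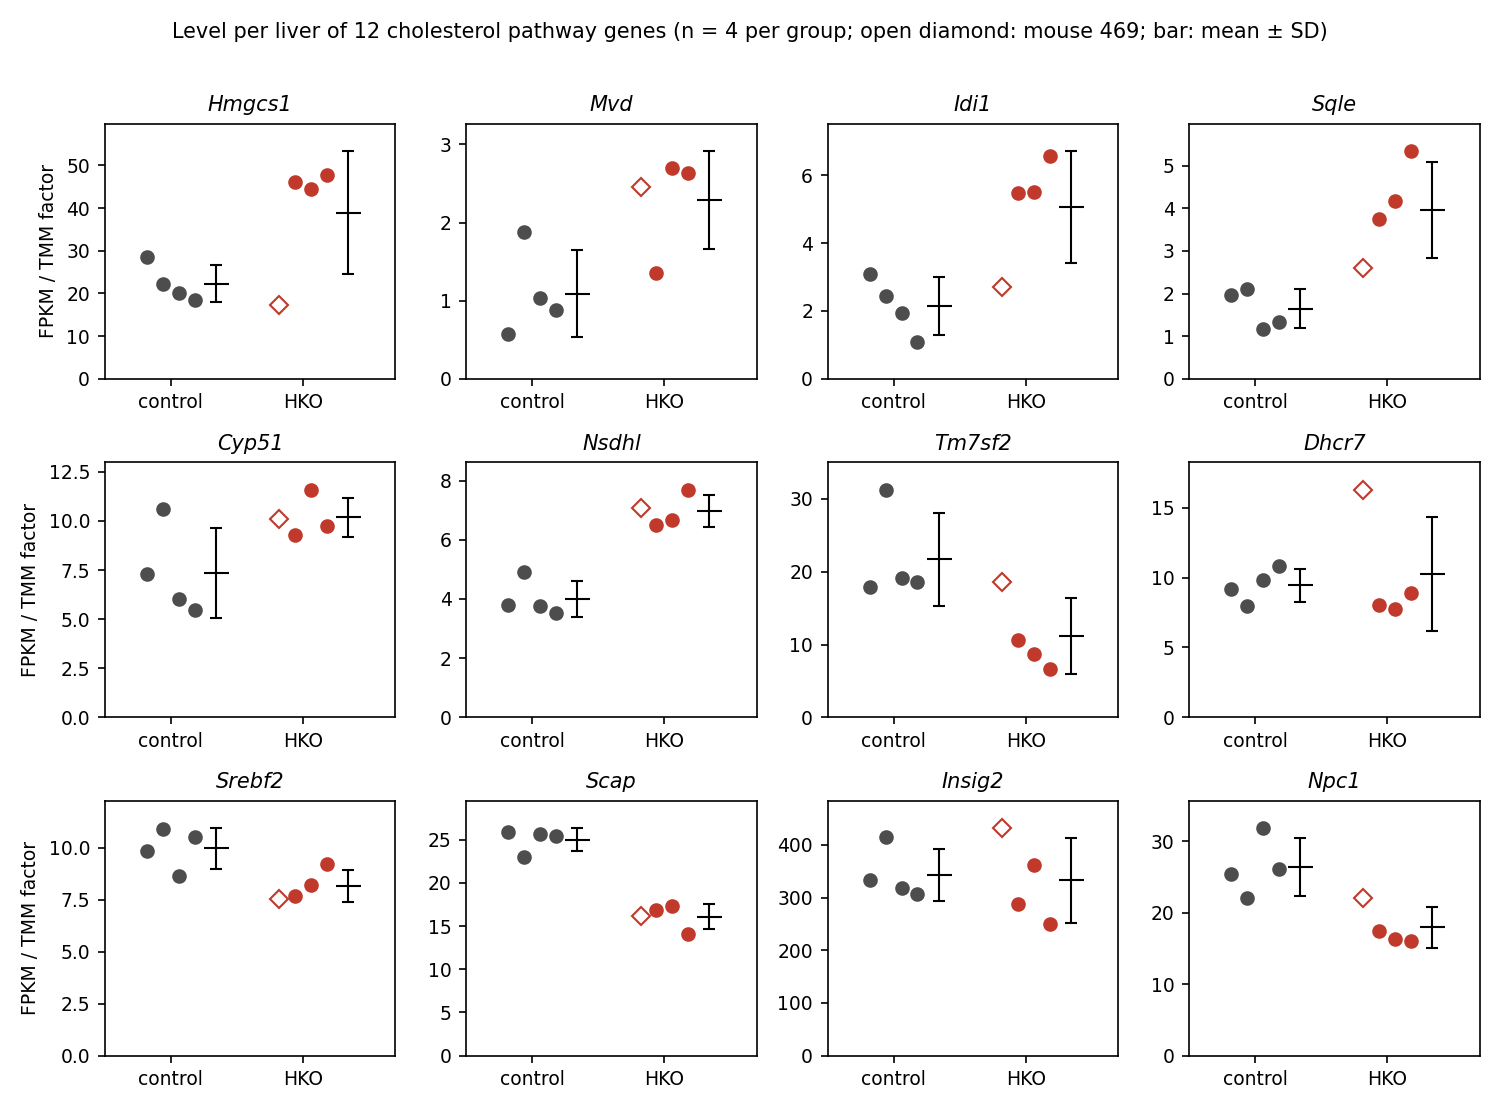
Scaled FPKM (FPKM divided by the TMM factor, y axis from 0) of 12 genes in 4 control (grey) and 4 Usp39-HKO livers (red), with mouse A469 as an open diamond and the mean ± SD beside each group. Sqle, Nsdhl and Scap separate the groups completely, whereas for Hmgcs1, Idi1, Tm7sf2 and Npc1 mouse A469 lies inside or beyond the control side.

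Between farnesyl diphosphate and lanosterol, 1 of 3 enzymes changed. Sqle, the squalene epoxidase and a rate-controlling enzyme of the chain (GRCm38 chr15:59315077-59331192, plus strand), had 1.96, 2.11, 1.17 and 1.34 scaled FPKM in controls and 2.60, 3.75, 4.17 and 5.34 in Usp39-HKO livers. Mouse A469 was the lowest of the Usp39-HKO livers and still above each control. Sqle had a log2 fold change of 1.27 ± 0.24 (SE, edgeR adjusted p = 0.00422), and its difference from the 1.25 of Idi1 was smaller than either SE. On leaving out single livers it stayed between 1.09 and 1.44, with an adjusted p of 0.000834 to 0.0191.

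Fdft1, the squalene synthase before it, was at 13.5, 14.1, 16.7 and 13.8 scaled FPKM in controls and 9.58, 12.7, 15.8 and 16.8 in Usp39-HKO livers. The groups overlapped, with a log2 fold change of -0.08 ± 0.16 (SE, edgeR adjusted p = 0.759) and an interval of -0.43 to 0.27. Its exons overlap those of Ctsb on the opposite strand over 18.3% of their length, and Ctsb was higher in Usp39-HKO livers (log2 fold change 0.34, adjusted p = 0.0391). Of the Fdft1 transcript, 54.7% matches Ctsb or Gm6781 on either strand, a share that can include the overlap with Ctsb. The part of this overlap and shared sequence in the Fdft1 counts was not tested. Lss, which closes squalene epoxide to lanosterol, had a log2 fold change of 0.47 ± 0.19 (SE, edgeR adjusted p = 0.102), and 0.64 without control mouse A472 (adjusted p = 0.0305), whose 2.70 scaled FPKM stood above the other controls at 1.61 to 1.96.

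The 8 enzymes from lanosterol to cholesterol were split, with Nsdhl higher, Tm7sf2 lower and 6 not passing the test. Nsdhl, the dehydrogenase that removes the methyl groups at one carbon of the ring, was at 3.81, 4.90, 3.75 and 3.54 scaled FPKM in controls and 7.06, 6.50, 6.66 and 7.70 in Usp39-HKO livers. Every Usp39-HKO liver exceeded every control, and mouse A469 was no exception. The fold change of Nsdhl on the log2 scale was 0.80 ± 0.13 (SE, edgeR adjusted p = 0.00263), between 0.74 and 0.92 on leaving out single livers.

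Tm7sf2, a sterol reductase acting after the demethylation of lanosterol (chr19:6062821-6068373, minus strand), went the other way. Its scaled FPKM was 17.9, 31.3, 19.1 and 18.6 in controls and 18.6, 10.6, 8.72 and 6.67 in Usp39-HKO livers, so that mouse A469 sat in the control range and the other 3 below it. Tm7sf2 had a log2 fold change of -0.96 ± 0.29 (SE, edgeR adjusted p = 0.0325). It was -1.30 without mouse A469 (adjusted p = 0.00195) and was called without control mouse A468 (0.0458). The call was lost on leaving out control mouse A472 (0.084), A473 (0.0576) or A475 (0.0551), or Usp39-HKO mouse A470 (0.066), A471 (0.083) or A474 (0.0775). Of its exon bases, 12.1% overlap Vps51 on the same strand.

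Cyp51, the lanosterol demethylase, was at 7.28, 10.6, 6.01 and 5.46 scaled FPKM in controls and 10.1, 9.30, 11.6 and 9.73 in Usp39-HKO livers. Here control mouse A472 alone lay within the Usp39-HKO range. The log2 fold change of Cyp51 was 0.47 ± 0.18 (SE, edgeR adjusted p = 0.0896) over all mice and 0.70 without mouse A472 (adjusted p = 0.00535). Hsd17b7, a ketosteroid reductase that also acts in the chain, ranged from 21.5 to 28.3 scaled FPKM in controls and from 28.2 to 30.0 in Usp39-HKO livers, with a log2 fold change of 0.21 ± 0.10 (SE, edgeR adjusted p = 0.163). Msmo1, the methyl sterol oxidase that works with Nsdhl, was at 0.21 ± 0.17 (SE, edgeR adjusted p = 0.43), and at 0.36 without mouse A469 (adjusted p = 0.0805).

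The last 3 enzymes of the chain, Ebp, Sc5d and Dhcr7, gave no call over all mice. Ebp, a sterol isomerase, was at 56.2, 55.3, 65.2 and 66.2 scaled FPKM in controls and 68.4, 44.1, 47.5 and 40.2 in Usp39-HKO livers, with mouse A469 the highest of all. Its log2 fold change was -0.28 ± 0.16 (SE, edgeR adjusted p = 0.23), and -0.45 without mouse A469 (adjusted p = 0.0145). Sc5d, a desaturase, was at -0.30 ± 0.14 (SE, edgeR adjusted p = 0.149), and mouse A469 had its lowest scaled FPKM, 30.0 against 36.5 to 49.7 in the other livers. Without this mouse Sc5d was at -0.18 (adjusted p = 0.343). Dhcr7, which catalyses the closing reduction to cholesterol, was at 16.3 scaled FPKM in mouse A469 and at 7.74 to 10.8 in the other 7 livers. Its log2 fold change was 0.11 ± 0.22 (SE, edgeR adjusted p = 0.757), and its sign turned to -0.18 without mouse A469.

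**Figure D3:**
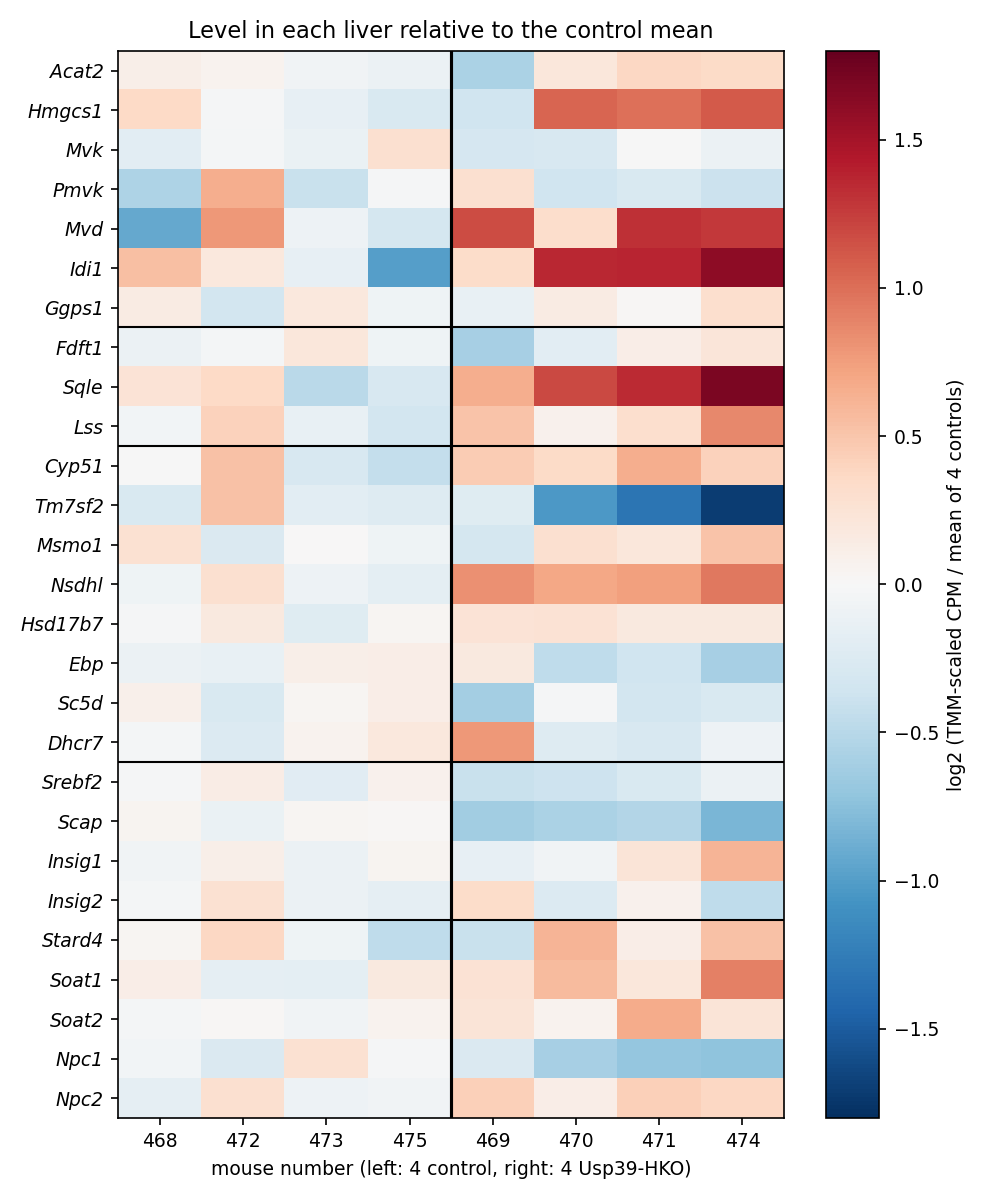
Level of the 27 genes tested in each liver relative to the mean of the 4 controls, as log2 of the count per library size scaled by TMM (colour, red above and blue below the control mean), with genes in the order of the pathway and lines between the roles. Mouse A469 differs from the other 3 Usp39-HKO mice at Hmgcs1, Tm7sf2, Ebp and Dhcr7, whereas Sqle, Nsdhl and Scap are coloured alike in all 4.

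Of the 4 control genes, Scap was lower and the other 3 did not pass the test. Scap, which escorts SREBP2 to the Golgi and lies at chr9:110333288-110384950 on the plus strand, was at 25.9, 23.0, 25.7 and 25.4 scaled FPKM in controls and at 16.2, 16.8, 17.3 and 14.1 in Usp39-HKO livers. The highest Usp39-HKO liver stayed below the lowest control. The log2 fold change of Scap was -0.63 ± 0.10 (SE, edgeR adjusted p = 0.00209), and lay between -0.67 and -0.57 on leaving out single livers. With scaling by library totals Scap was at -0.40 (adjusted p = 0.0116). Over 13.2% of its exon bases Scap overlaps 5830462I19Rik on the opposite strand.

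Srebf2 was at 9.84, 10.9, 8.66 and 10.5 scaled FPKM in controls and at 7.54, 7.68, 8.23 and 9.22 in Usp39-HKO livers, with overlap at mouse A474. Its log2 fold change was -0.29 ± 0.11 (SE, edgeR adjusted p = 0.0728), and the interval of -0.52 to -0.06 lay below 0 without passing the adjustment over all genes. With scaling by library totals Srebf2 was at -0.04 (adjusted p = 0.821). Insig1, the retention protein that is itself an SREBP2 target, was at 0.19 ± 0.16 on the log2 scale (SE, edgeR adjusted p = 0.421), with its highest scaled FPKM, 22.2, in mouse A474 against 13.1 to 16.9 in the other livers. Insig2, of which liver makes a transcript known to be repressed by insulin and to rise during fasting, was the most abundant of the 28 genes per length. It ranged from 306 to 415 scaled FPKM in controls and from 249 to 432 in Usp39-HKO livers, with a log2 fold change of -0.05 ± 0.18 (SE, edgeR adjusted p = 0.889).

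Among the 5 transport and storage genes, Npc1 was lower and the other 4 had positive log2 fold changes short of the threshold. Npc1, the membrane protein that exports cholesterol from lysosomes, was at 25.5, 22.1, 31.9 and 26.1 scaled FPKM in controls and 22.1, 17.5, 16.3 and 16.0 in Usp39-HKO livers, and mouse A469 again touched the control range. Its log2 fold change was -0.55 ± 0.14 (SE, edgeR adjusted p = 0.0182), and -0.65 without mouse A469 (adjusted p = 0.00544). The call was lost without control mouse A473 (0.0649) and without Usp39-HKO mouse A471 (0.0517) or A474 (0.0511), and with scaling by library totals the log2 fold change was -0.32 (adjusted p = 0.0793). Over 5.31% of its exon bases Npc1 overlaps Gm15956 or Rmc1 on the opposite strand. Npc2, the soluble lysosomal protein that hands cholesterol to Npc1, was at 0.34 ± 0.12 on the log2 scale (SE, edgeR adjusted p = 0.0603), and passed without control mouse A472 (adjusted p = 0.0139) or Usp39-HKO mouse A470 (0.0337).

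The sterol esterifying enzymes separated the groups with small gaps. Soat1, which is made by many cell types including macrophages, was at 1.59, 1.29, 1.29 and 1.65 scaled FPKM in controls and 1.74, 2.15, 1.68 and 2.73 in Usp39-HKO livers. Soat1 had a log2 fold change of 0.51 ± 0.17 with an edgeR adjusted p of 0.0501, and the adjusted p was 0.0263 without Usp39-HKO mouse A469 and 0.0388 without mouse A471. The summed scaled FPKM of the 10 macrophage markers spanned 508 to 710 over the controls and 835 to 1075 over the Usp39-HKO livers, and its part in the Soat1 and Npc2 values was not tested. Soat2, the form of hepatocytes, was at 21.9, 22.8, 21.4 and 23.4 scaled FPKM in controls and 26.4, 23.5, 35.7 and 26.2 in Usp39-HKO livers. Soat2 had a log2 fold change of 0.32 ± 0.13 (SE, edgeR adjusted p = 0.0957), and the adjusted p was 0.0498 without Usp39-HKO mouse A470. Stard4, a sterol carrier of the cytosol, was at 0.27 ± 0.22 (SE, edgeR adjusted p = 0.422), and its 4.86 scaled FPKM in mouse A469 lay below the 6.93 to 9.78 of the other Usp39-HKO livers. Leaving out mouse A469 put Stard4 at 0.46 (adjusted p = 0.0994).

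In the two-sided exact permutation test of mean FPKM as deposited, which involves no TMM factor, Sqle, Nsdhl and Scap were at p = 0.029, the smallest value that 4 against 4 mice allow. Cyp51, Hsd17b7, Soat1, Soat2 and Npc2, which the edgeR fit did not call, were at the same exact p. Mvd, Idi1 and Npc1 were at an exact p of 0.057, and Tm7sf2 at 0.114. These are unadjusted values from the same mice, and they add no independent support to the calls. Left unscaled, the median of all genes tested lay 0.23 above control on the log2 scale, which favours higher genes in this test. The share of all genes at this exact p was not counted, so the number of pathway genes at it does not set the pathway apart.

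Further genes of the pathway were read from the same fit, 34 in 3 lists, all of them tested. Of these, 2 were higher and 5 lower, or 5.88% and 14.7%, against 10.9% higher and 11.6% lower over all genes tested, with a median log2 fold change of -0.02. Among the genes that process SREBPs or sense sterols, the Golgi proteases Mbtps1 and Mbtps2 were at -0.11 ± 0.09 and 0.06 ± 0.12 (SE, edgeR adjusted p = 0.414 and 0.789), and Srebf1, the sister factor of lipogenesis, at 0.10 ± 0.19 (adjusted p = 0.752). Nr1h3, the oxysterol receptor LXR alpha, was lower without overlap, at 39.5 to 45.6 scaled FPKM in controls and 29.6 to 37.5 in Usp39-HKO livers (log2 fold change -0.43 ± 0.10 SE, edgeR adjusted p = 0.0133). With scaling by library totals this was -0.19 for Nr1h3 (adjusted p = 0.208), and in FPKM as deposited the groups overlapped (two-sided exact permutation p = 0.114).

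Of the 12 genes that use isoprenoids for other products, Pdss1 was higher and Pdss2 and Rabggta were lower. Pdss1 and Pdss2 encode the subunits of the enzyme that makes the side chain of ubiquinone. Pdss1 was at 0.690 to 1.04 scaled FPKM in controls and 1.11 to 2.55 in Usp39-HKO livers (log2 fold change 0.96 ± 0.28 SE, edgeR adjusted p = 0.0316), and Pdss2 at 2.02 to 2.46 and 1.33 to 1.8 (-0.48 ± 0.14 SE, adjusted p = 0.033). Both calls depended on single livers, and without control mouse A473 the adjusted p was 0.0921 for Pdss1 and 0.107 for Pdss2. Pdss1 was also lost without control mouse A468 (0.0503) or A475 (0.0839) or Usp39-HKO mouse A474 (0.0945), and Pdss2 was kept only without control mouse A472 (0.0444) or Usp39-HKO mouse A471 (0.0361). Rabggta, a subunit of the enzyme that attaches geranylgeranyl groups to Rab proteins, was at 11.4 to 14.4 scaled FPKM in controls and 8.12 to 9.64 in Usp39-HKO livers (log2 fold change -0.54 ± 0.11 SE, edgeR adjusted p = 0.00586). With scaling by library totals the log2 fold change was -0.31 for Rabggta (adjusted p = 0.0558) and -0.24 for Pdss2 (adjusted p = 0.271).

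Of 10 further genes of sterol transport and ester hydrolysis, Gramd1b was higher and Osbp lower. Gramd1b, which carries cholesterol from the plasma membrane to the endoplasmic reticulum, was at 0.5 to 0.868 scaled FPKM in controls and 1.04 to 1.92 in Usp39-HKO livers (log2 fold change 0.88 ± 0.23 SE, edgeR adjusted p = 0.0184), with an adjusted p of 0.0571 without control mouse A473. Osbp, an oxysterol-binding exchanger at the Golgi, was at 18.5 to 19.1 and 14.7 to 16.5 scaled FPKM (-0.27 ± 0.08 SE, edgeR adjusted p = 0.0431). Leaving out any 1 liver other than Usp39-HKO mouse A470 (0.047) raised the adjusted p of Osbp to between 0.0518 and 0.116. With scaling by library totals, the log2 fold change of Osbp was -0.03.

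The 8 genes of fatty acid synthesis, which SREBP1 controls, were compared because both branches need Scap. Of 7 tested, 2 were lower (28.6%, against 11.6% of all genes tested) and 5 did not pass the test. Negative log2 fold changes were seen in 5 of the 7 and positive ones in 2. The median log2 fold change was -0.26, against 0.17 for the 18 tested enzymes of cholesterol synthesis. The difference between these lists and the part of Scap in it were not tested. Acss2, which makes acetyl-CoA from acetate, had a log2 fold change of -0.89 ± 0.13 (SE, edgeR adjusted p = 0.0012). Acaca, the acetyl-CoA carboxylase of lipogenesis, was at -0.46 ± 0.15 (SE, edgeR adjusted p = 0.0476), and was called on leaving out a single liver only without mouse A469 (adjusted p = 0.0178), with 0.0555 to 0.137 otherwise. With scaling by library totals Acaca was at -0.23 (adjusted p = 0.259).

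**Figure D4:**
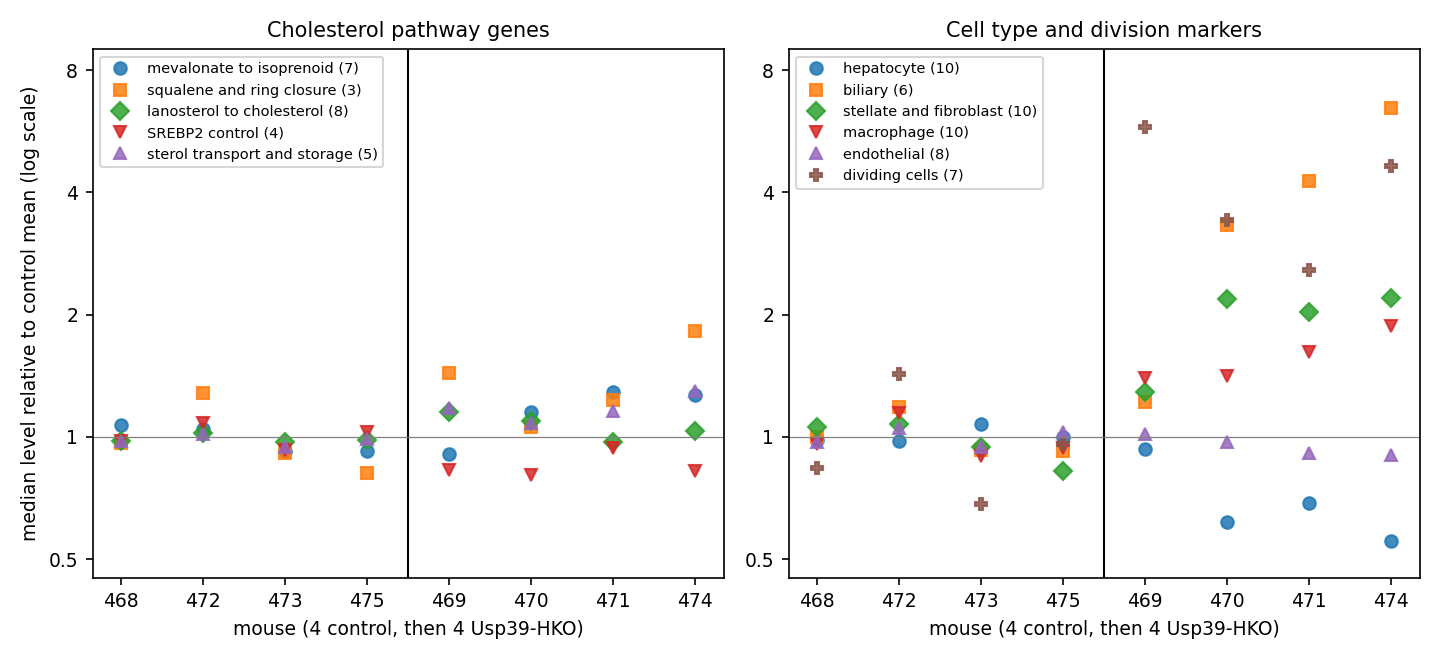
Median level of each gene list in each liver relative to the control mean (log axis), with the number of genes tested in brackets: the 5 roles of the cholesterol genes on the left, and cell type and dividing-cell markers on the right. The medians of the cholesterol lists lie between 0.806 and 1.82 times the control mean in Usp39-HKO livers, whereas biliary markers reach 6.44 times and hepatocyte markers 0.556 times in mouse A474.

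In the SREBP2 control genes the median was at 0.806 to 0.940 of the control mean in the 4 Usp39-HKO livers and at 0.929 to 1.08 in controls. In the squalene and ring closure enzymes it was at 1.06 to 1.82 in Usp39-HKO livers and at 0.816 to 1.28 in controls. The mice in which hepatocyte markers were lowest and biliary markers highest, A470, A471 and A474, were also those in which Hmgcs1 and Idi1 were highest and Tm7sf2 and Npc1 lowest. Other called genes did not follow this order. For Nsdhl and Scap, mouse A469 was at 7.06 and 16.2 scaled FPKM, inside the 6.50 to 7.70 and 14.1 to 17.3 of these mice. Mvd was higher in mouse A469, at 2.46, than in mouse A470, at 1.36. The part of cell composition in these values was not tested.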

How the data were processed

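Liver RNA of 8 mice was sequenced as 1 library per mouse. The authors trimmed reads with Trim Galore (0.6.1), checked them with FastQC (0.11.9), aligned them to mm10 with HISAT2 and obtained gene counts from featureCounts. The annotation release and the strand setting were not given in the sources used here. The deposited values are unnormalized counts for each gene in each mouse and FPKM, which the authors computed from these counts, the exon length and the total count of the library. The authors also deposited a DESeq2 comparison (a mean normalized signal, log2 fold changes, scores for their standard error and Wald test, and p-values), which was not used.

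The 55699 entries cover 55385 identifiers, and repeated entries were read once. Coordinates and overlaps came from GENCODE vM21, which held 55144 of them. Shared sequence was searched with blastn (2.17.0+) on both strands, so genes that overlap on the same DNA can count as shared. Genes reaching an FPKM of 0.5 in 4 or more of the 8 livers were tested with edgeR (4.0.16, TMM scaling, quasi-likelihood test, no covariate), and p-values were adjusted over all 14340 with the Benjamini-Hochberg method. A gene was called at an adjusted p under 0.05. The SE is the log2 fold change divided by the square root of F, and its interval uses the t distribution. The common biological coefficient of variation was 0.179. The tests were run on simulated counts in which 200 genes were changed, equally in both directions. That setting had no shift of the median gene between groups, so it did not check the scaling. Alternatives were median-ratio size factors, library totals, DESeq2 (1.42.0), limma (3.58.1) on log2(FPKM + 1) and other pseudocounts, other filters, leaving out each liver, and the cutoff of the study.

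All 28 genes are named, and of the other pathway lists those called, with Srebf1, Mbtps1 and Mbtps2, except an item that is not reported here. The genes and lists were chosen with earlier results of these data known. Totals of 8589636 to 10418450 counts limit low genes, and intervals cover the spread between these mice.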

Additional observations from a re-analysis of the deposited data

Results flagged for a closer look

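Values were set apart where the gap of the highest or lowest liver to its nearest neighbour took up more of the range of its group of 4 than the critical value of Dixon's test allows. Of 56 groups (28 genes in 2 genotypes), 5 were set apart, and chance alone sets apart about 1 in 20. The Usp39-HKO mouse A469 gave 3 of them. Its scaled FPKM was 17.4 for Hmgcs1, against 44.5 to 47.7 in the other Usp39-HKO livers, 11.7 for Pmvk, against 7.32 to 7.94, and 16.3 for Dhcr7, against 7.74 to 8.87. The control mouse A472 gave the other two, at 31.3 scaled FPKM for Tm7sf2, against 17.9 to 19.1 in the other controls, and at 23.0 for Scap, against 25.4 to 25.9.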

How the results depend on the processing

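Scap and Nsdhl kept their call and direction in all 16 other fits and Sqle in all 15 that held it. The number of cholesterol genes called higher, 4 in the report, was 11 with library totals, 7 with DESeq2 and 9 with limma on log2(FPKM + 1), and 2 to 7 on leaving out single livers. The number called lower, 3 in the report, was 1 with limma and 1 to 4 on leaving out single livers, with 1 without control mouse A473 or Usp39-HKO mouse A471 or A474. Of the 34 other pathway genes, 2 were called higher in the report, 9 with library totals, 6 with limma and 0 to 4 on leaving out single livers. The 5 called lower became 1 with library totals, 1 with limma, 3 with a mean FPKM of at least 5, 2 with the cutoff of the study (unadjusted p under 0.05 and a log2 fold change beyond 0.5) and 3 to 4 on leaving out single livers. With a mean FPKM of at least 5, 1595 of 6672 genes were called in either direction. Over all genes, calls at the cutoff of the study were not counted. Of all 14340 genes tested, 1561 were called higher in the report, 3509 with library totals, 1695 with DESeq2 and 3031 with limma. Calls in either direction numbered 3225, 4211, 3464 and 3668 in the same order. On leaving out single livers, 982 to 1847 of all genes were called higher and 1931 to 3510 in either direction. Library totals and limma raise the median gene in Usp39-HKO livers by 0.23 and 0.17 on the log2 scale. The log2 fold change of Usp39 was -0.18 with library totals (adjusted p = 0.241) and -0.16 with limma (adjusted p = 0.168), stayed at -0.41 but did not pass the cutoff of the study, and was -0.45 to -0.35 on leaving out single livers.

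Signs turned only in genes that were not called. The log2 fold changes with library totals and with limma at a pseudocount of 1, 0.1 and 5 were 0.061, 0.052, 0.066 and 0.027 for Mvk, 0.062, 0.11, 0.13 and 0.068 for Pmvk, 0.17, 0.12, 0.12 and 0.10 for Fdft1, and 0.18, 0.17, 0.17 and 0.17 for Insig2. With a mean FPKM of at least 5, Fdft1 was at 0.0011 and Insig2 at 0.029. On leaving out single livers, Pmvk ranged from -0.33 to 0.14, Fdft1 from -0.20 to 0.076, Dhcr7 from -0.18 to 0.22 and Insig2 from -0.18 to 0.071. The causes were not tested. The groups were littermates, but the labels give no litter, so no analysis paired or blocked by litter was possible. Transcripts were read at 1 age and in the fasted state only, and genes with few counts, such as Mvd, could not show small changes at this depth.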
